A study of Mus musculus with 6 samples.

Results

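The genes described here are the forkhead transcription factors of the mouse, measured in neurally differentiating embryonic stem cells kept with or without valproate. Members were the genes whose symbol in the platform's annotation begins with Fox, a subclass letter from a to s and a number, taken from probe sets annotated with exactly 1 gene. The rule found 44 genes of the 19938 measured, on 46 probe sets. They belonged to 18 subclasses, 43 coded for proteins and the other member, Foxl2os, is a long non-coding RNA antisense to its neighbour Foxl2. Where a gene had several probe sets, the brightest over all 6 arrays stood for it.

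The 6 cultures came from W4, a line of mouse embryonic stem cells, and were grown for 16 days on coated plates in a medium with B27, N2, bFGF, laminin, insulin, albumin and β-mercaptoethanol, which directs the cells towards neurons. The first group, VPA 1 to 3, was kept for the whole 16 days in 300 uM valproate (VPA), an inhibitor of histone deacetylases that is prescribed against epilepsy and can harm the fetal nervous system. The control group, PBS 1 to 3, received phosphate-buffered saline, the solvent. Replicates are described as biological, and both groups derive from this single cell line.

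Forkhead proteins bind DNA through a winged-helix domain, and several of them can open compacted chromatin ahead of other factors. The family is named by subclass letter, and members of a subclass often share tissues: Foxa genes act in endoderm and in the floor plate of the neural tube, Foxc and Foxf genes in mesenchyme and vessels, Foxj1 in ciliated cells, Foxo genes downstream of insulin signalling and Foxp genes in neurons and lymphocytes. Foxm1 drives genes of mitosis, and Foxd3 marks pluripotent cells and early neural crest.

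The values are normalized log2 signals from Affymetrix arrays, with array medians from 6.99 to 7.03, and each change is relative to the other genes on the array. The arrays differed among themselves before any comparison of groups. Over all genes the median absolute difference was 0.0605 to 0.0663 between PBS arrays and 0.0730 between VPA 2 and VPA 3, against 0.125 and 0.132 between VPA 1 and those arrays, so VPA 1 stood apart and results that rest on it are given with and without it. Probe sets of different genes respond differently, so no gene's level is set against another's. The 95th percentile of 1027 olfactory receptor genes, which are mostly silent outside the nose, was 6.15 and served as a gauge of background: a mean below it was not told apart from background. By that gauge all 18 measured pan-neuronal genes were above background with PBS, while 8 of 12 pluripotency genes, Pou5f1 and Nanog among them, were below it in both groups.

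With VPA 10 forkhead genes rose and 3 fell. Foxd1 and Foxd3 rose furthest among those above the background gauge in both groups, by 2.18-fold and 1.97-fold, followed by Foxo1, Foxa1 and Foxc1 at 1.69-fold, 1.65-fold and 1.60-fold, Foxm1 at 1.25-fold, Foxf1 at 1.21-fold and Foxq1 at 1.17-fold. Foxc2 and Foxf2 rose as well, with measured ratios of 1.70 and 1.45 that have no defined size and no place in this order, because their PBS means lay below the background gauge. The falls were those of Foxp2, Foxr2 and Foxb1, of which the largest was 1.37-fold, that of Foxp2. Together 13 of 44 members (29.5%) passed limma's test at a Benjamini-Hochberg adjusted p under 0.05, which is close to the 29.2% of all genes called. The split by direction differed from that background: 22.7% of members were higher against 13.6% of all genes, and 6.82% were lower against 15.7% of all genes. Among genes in the upper 50% by mean level, which held 15 members, this did not hold for the higher calls: 1 member (6.67%) was higher, against 15.25% of those genes. Among genes at or above the 30th percentile by mean level, 10 of 36 members (27.78%) were higher, against 16.37% of those genes. Lower there were 2 members (5.56%), against 22.82%. Of the members 6 (13.6%) were called and at least 1.5-fold higher, against 3.49% of all genes, and no member fell that far, against 2.17% of all genes. The median change was 0.07 over the members and 0.0013 over all genes (log2). These shares describe the list and were not tested as a set.

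The groups did not overlap for 21 members (47.7%), close to the 44.0% of all genes, with VPA above PBS for 14 (20.2% of all genes) and below for 7 (23.8% of all genes). All 13 called members were among them, and the other 8 did not pass the test. At or above the background gauge were both group means of 34 members, and 1 mean of 2 others, Foxc2 and Foxf2. Both means of Foxa3, Foxd4, Foxh1, Foxi1, Foxl1, Foxn1, Foxr1 and Foxr2 lay below it, and of these 8 Foxr2 was called. Without VPA 1, 12 members were higher (19.8% of all genes) and 6 lower (21.2% of all genes). Without PBS 1, PBS 2 and PBS 3 in turn, 8, 8 and 9 members were higher (9.13%, 8.92% and 9.89% of all genes) and 1, 3 and 3 lower (10.7%, 10.3% and 10.5%). Without VPA 2 and VPA 3 in turn, 8 and 11 were higher (10.7% and 11.2%) and 2 and 2 lower (11.7% and 13.6%). Among the 10 members called higher, VPA 1 was the highest VPA array for 8, and their median difference between VPA 1 and the mean of VPA 2 and VPA 3 was 0.30, against 0.03 over all genes called higher.

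**Figure D1:**
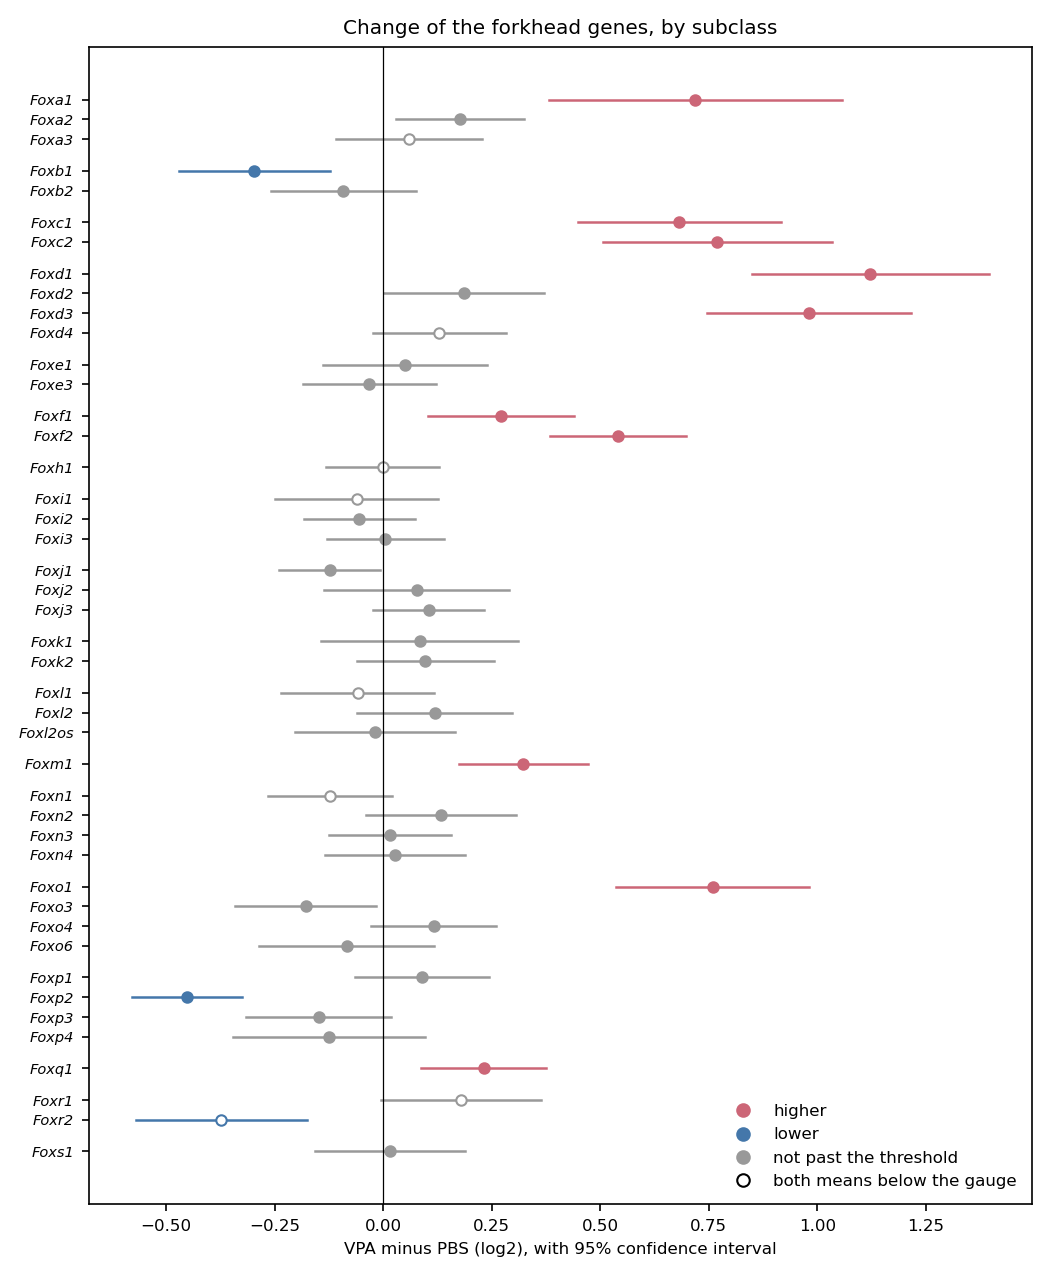
Difference between the group means (VPA minus PBS, log2, horizontal axis) for the 44 forkhead genes, grouped by subclass, with 95% confidence intervals from the fit over all genes. Red and blue points are the 10 higher and 3 lower members, grey points did not pass the threshold, and open points had both group means below the background gauge. The intervals of the Foxc genes, Foxd1, Foxd3, Foxo1 and Foxa1 lie furthest to the right, while every grey interval stays between -0.35 and 0.37.

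The Foxd subclass held the largest changes. Foxd1, a gene of kidney stroma and of the ventral forebrain and retina, read 6.30, 6.12 and 6.21 on the PBS arrays and 7.61, 7.08 and 7.30 on the VPA arrays. The lowest VPA array lay well above the highest PBS array, and the change was 1.12 (log2, SE 0.12, adjusted p = 0.000187). Without VPA 1 it was 0.98 (SE 0.08). Foxd3, which specifies neural crest and is also active in pluripotent cells, read 6.35, 6.28 and 6.39 with PBS and 7.58, 7.17 and 7.21 with VPA. Again no values of the groups met, VPA 1 was the highest array, and the change was 0.98 (SE 0.10, adjusted p = 0.000172), or 0.85 (SE 0.05) without VPA 1. The PBS means of both genes, 6.21 and 6.34, stood only slightly above the gauge. Foxd2, a gene of facial and kidney mesenchyme, differed by 0.19 (95% confidence interval 0.0028 to 0.37) and did not pass (adjusted p = 0.121), and the groups overlapped. It passed when VPA 3 was left out (0.26, adjusted p = 0.0366). Foxd4 was below the gauge in both groups.

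Markers of the cell types in which Foxd3 acts were measured beside it. Of 13 neural crest genes 9 rose and 1 fell (13.6% and 15.7% of all genes), with a median change of 0.61, and all 13 had a group mean at or above the gauge. Erbb3, a receptor gene of crest-derived glia, rose by 1.62 (SE 0.07), and Tfap2b, a crest factor that the dorsal midbrain also expresses, changed by -1.39 (SE 0.07). The mean level of the list was 8.10 to 8.18 on the PBS arrays and 8.55 to 8.66 on the VPA arrays. The part of crest cells in the rise of Foxd3 was not tested. In a culture measured as a whole, more cells of a type and more RNA per cell cannot be told apart, which holds for each member below. Of the pluripotency list, which stands for the other cells that use Foxd3, 1 of 12 genes rose, Klf4, and 0 fell by limma (2 and 0 at an unadjusted p under 0.05). Klf4 was not called when any PBS array was left out. Pou5f1, Nanog, Zfp42, Dppa3, Dppa5a, Esrrb, Utf1 and Tdgf1 were below the gauge in both groups.

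**Figure D2:**
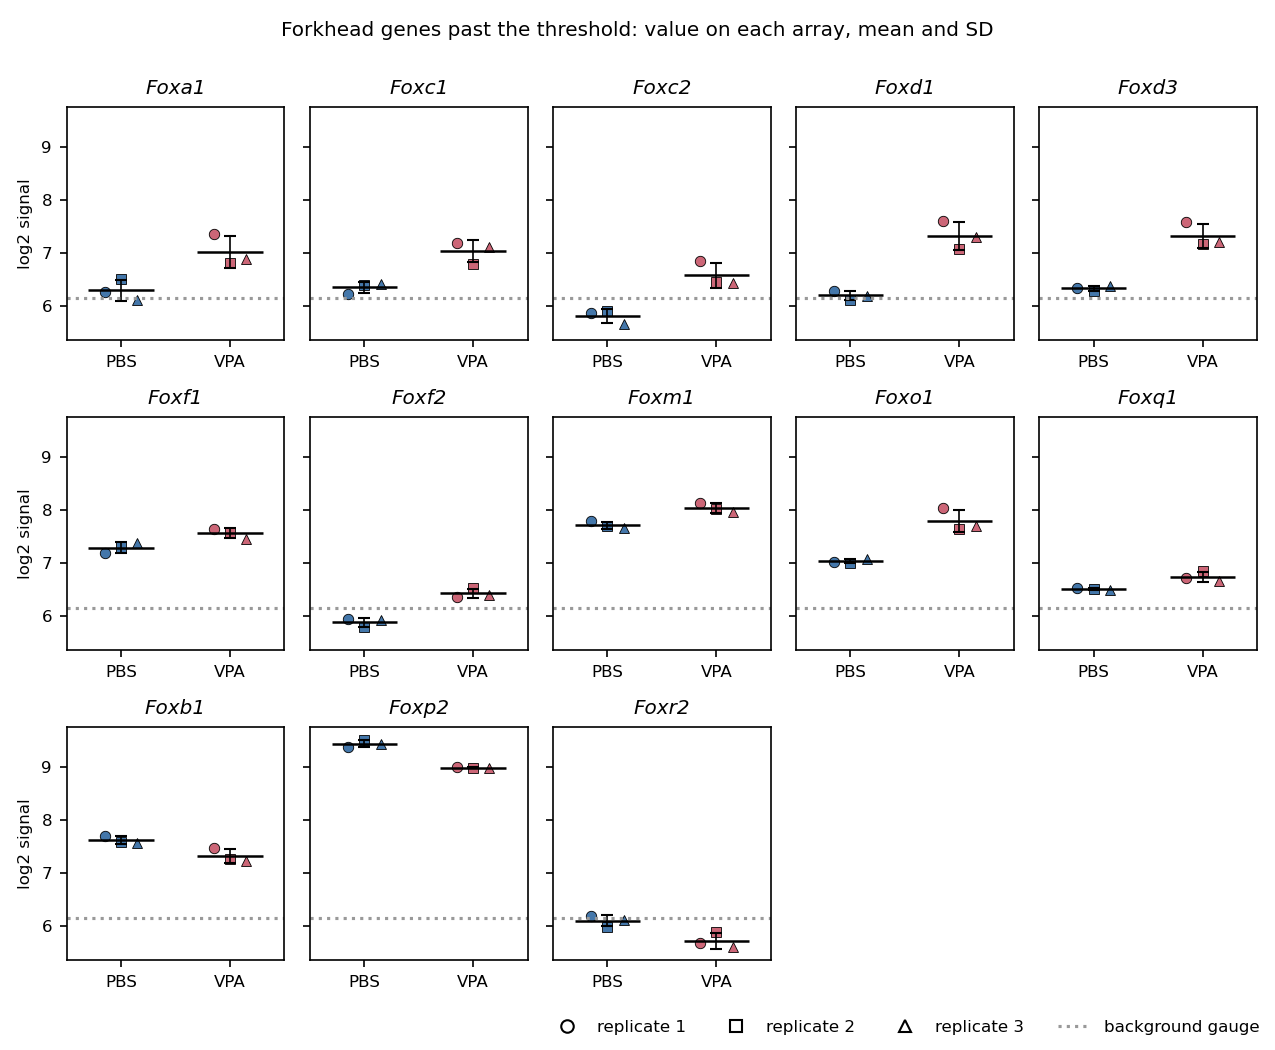
Log2 signal (vertical axis, the same in all panels) of the 13 called forkhead genes on each array, with PBS in blue and VPA in red. Symbols mark the replicate number, bars the mean and SD of 3 arrays, and the dotted line the background gauge at 6.15. In each panel the groups do not overlap; VPA 1, the circle, is the highest VPA array for 8 of the 10 higher genes.

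In the Foxa subclass 1 of 3 genes passed (29.2% of all genes). Foxa1, which with Foxa2 opens chromatin in endoderm, floor plate and midbrain dopamine neurons, read 6.28, 6.52 and 6.12 on the PBS arrays and 7.37, 6.82 and 6.89 on the VPA arrays. Its replicates were more scattered than those of any other called member, with SDs of 0.20 and 0.30, but no VPA array fell within the PBS range. The change was 0.72 (SE 0.15, adjusted p = 0.00665), and without VPA 1, which was the highest array, it was 0.55 (SE 0.10). When each gene kept its own variance, without moderation, the adjusted p was 0.0951. Foxa2, the defining factor of the floor plate, read 6.93, 6.76 and 6.83 with PBS and 7.04, 6.95 and 7.05 with VPA. These groups did not overlap either, but the change of 0.18 (95% confidence interval 0.0297 to 0.323) missed the threshold after adjustment (adjusted p = 0.0725). Foxa3, an endoderm gene, was below the gauge in both groups.

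Of 10 floor plate genes 7 rose and 0 fell by limma (7 and 0 at an unadjusted p under 0.05), with a median change of 0.42. The count was 4 when PBS 1 or PBS 3 was left out. Ntn1, the floor plate gene for the axon guidance cue netrin, rose by 1.46 (SE 0.22), and Nkx2-2, a ventral neural tube factor, by 0.80 (SE 0.21) from a PBS mean below the gauge. The median difference of its genes between VPA 1 and the mean of VPA 2 and VPA 3 was 0.27, and that of Foxa1 was 0.52. For the neural crest list this median was 0.11, and the difference of Foxd3 was 0.39. Of 16 endoderm genes 4 rose and 2 fell, and Dab2, an adaptor gene that extraembryonic endoderm expresses, rose by 1.85 (SE 0.08) while Ttr, the transthyretin gene, which the choroid plexus expresses as well, changed by -1.90 (SE 0.17). The others that rose were the keratin genes Krt8 and Krt18 of simple epithelia and the factor gene Gata6. Of the 16 endoderm genes 4, Sox17, Afp, Cer1 and Apob, were below the gauge in both groups. The other 12 had a group mean at or above it.

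Both Foxc genes and both Foxf genes rose. Foxc1, a gene of head mesenchyme, meninges and the eye, read 6.23, 6.41 and 6.43 with PBS and 7.20, 6.81 and 7.12 with VPA. All VPA arrays were above all PBS arrays, for a change of 0.68 (SE 0.10, adjusted p = 0.00125). Foxc2, which acts in lymphatic vessels and somites, read 5.87, 5.92 and 5.67 with PBS and 6.86, 6.47 and 6.44 with VPA. Its measured difference was 0.77 (SE 0.12, adjusted p = 0.00124), but the PBS mean of 5.82 was below the gauge, so that the true size of the change is not defined. Without VPA 1 the changes were 0.60 and 0.63. Foxf1, a gene of visceral mesenchyme and its vessels, had 2 probe sets. On the brighter it read 7.19, 7.30 and 7.39 with PBS and 7.64, 7.59 and 7.46 with VPA, a change of 0.27 (SE 0.07, adjusted p = 0.0240). The call was lost without PBS 1 (adjusted p = 0.101), PBS 2 (0.0737) or VPA 2 (0.0712). The other probe set changed by 0.35 (SE 0.09), in the same direction. On it VPA 1 was the lowest VPA array (7.12, against 7.415 and 7.45), and on the brighter one the highest. Foxf2, a gene of mesenchyme and brain pericytes, read 5.95, 5.80 and 5.93 with PBS and 6.36, 6.53 and 6.41 with VPA. Here VPA 1 was the lowest VPA array, the measured difference was 0.54 (SE 0.07, adjusted p = 0.000506) and the PBS mean of 5.89 lay below the gauge.

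These genes lie in chromosomal runs with other members. In the order Foxq1, Foxf2 and Foxc1, the first run contains no other protein-coding gene, and its 3 members rose. Foxq1, a gene of epithelia, read 6.53, 6.52 and 6.50 with PBS and 6.73, 6.85 and 6.66 with VPA. The groups were separate and the change was 0.23 (SE 0.06, adjusted p = 0.0245), but the call was lost when any PBS array or VPA 2 was left out (adjusted p 0.0717 to 0.0866). The flanking genes Hus1b and Gmds differed by 0.07 (SE 0.06, adjusted p = 0.413) and 0.16 (SE 0.06, adjusted p = 0.0775). In the second run Foxf1 is followed by the unrelated gene Mthfsd, then Foxc2 and Foxl1. Mthfsd differed by -0.11 (SE 0.07, adjusted p = 0.279), between 2 forkhead genes that rose, and the outer neighbours Irf8 and 1700018B08Rik by 0.02 and 0.03. Foxl1, a gene of gut mesenchyme, read 5.95, 5.99 and 6.15 with PBS and 6.07, 6.00 and 5.85 with VPA, below the gauge in both groups. Foxd2 and Foxe3 are also neighbours, and neither was called, while Cmpk1, which flanks Foxe3, fell by 0.25 (SE 0.07, adjusted p = 0.0308). Over all members, 70 flanking protein-coding genes that are not members were measured, and 3 rose and 12 fell (13.6% and 15.7% of all genes). Next to the higher members 12 were measured, of which 1 passed the test (29.2% of all genes): Atg4c, beside Foxd3, fell by 0.40 (SE 0.06). Whether flanking genes differ from other genes was not tested.

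**Figure D3:**
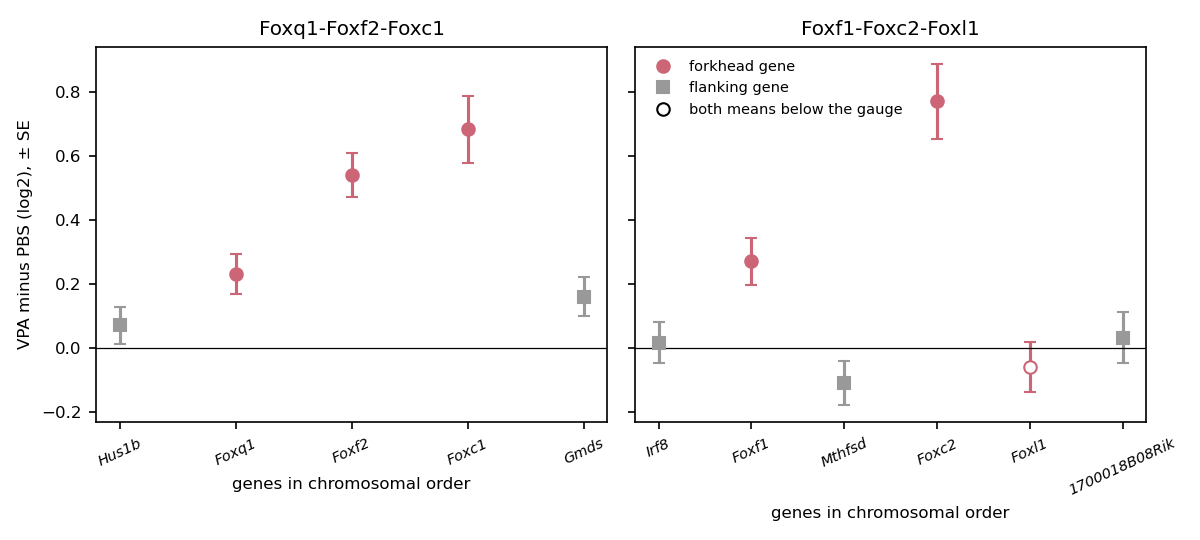
For the runs Foxq1-Foxf2-Foxc1 and Foxf1-Foxc2-Foxl1, difference between group means (VPA minus PBS, log2, vertical axis) with its standard error, for the forkhead genes (red circles) and the protein-coding genes next to or between them (grey squares), placed in chromosomal order and not to scale. Open symbols had both group means below the background gauge. The forkhead genes Foxq1, Foxf2, Foxc1, Foxf1 and Foxc2 lie at 0.23 to 0.77, and the grey genes of these runs between -0.11 and 0.16.

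Mesenchymal and vascular markers were measured beside the Foxc and Foxf genes. Of 20 mesenchyme, pericyte and meninges genes 16 rose and 0 fell by limma (18 and 0 at an unadjusted p under 0.05), with a median change of 1.02, and 15 or 16 rose when any array was left out. Lum and Dcn, collagen-binding proteoglycan genes of fibroblasts, rose by 2.29 (SE 0.12) and 2.28 (SE 0.10). The mean level of the list was 7.10 to 7.19 on the PBS arrays and 8.10 to 8.24 on the VPA arrays. Of its genes 3, Rgs5, Abcc9 and Tbx18, were below the gauge in both groups, and Abcc9 was called higher. The other 17 had a group mean at or above it. Of 16 endothelial genes 13 rose and 0 fell by limma (14 and 0 at an unadjusted p under 0.05), with a median of 0.35. Cdh5, the vascular endothelial cadherin gene, rose by 1.98 (SE 0.16) and Emcn, an endothelial mucin gene, by 1.30 (SE 0.12), both from PBS means below the gauge. Tek, Erg, Sox17 and Robo4 were below it in both groups, and the mean level of the list was 6.17 to 6.25 with PBS and 6.67 to 6.80 with VPA. Foxs1, a gene of pericytes and sensory ganglia, read 6.38, 6.49 and 6.32 with PBS and 6.35, 6.35 and 6.55 with VPA, with overlapping groups and a change of 0.02 (95% confidence interval -0.16 to 0.19). Between VPA 1 and the mean of VPA 2 and VPA 3, the median difference was 0.04 for the mesenchyme list and 0.12 for the endothelial list. The same difference was 0.23 for Foxc1, 0.41 for Foxc2, 0.12 for Foxf1 on its brighter probe set and -0.11 for Foxf2. The part of mesenchymal and vascular cells in the changes of the Foxc and Foxf genes was not tested.

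For 29 of the 44 members RefSeq promoter windows were at hand, 34 windows in all, each of 300 bases running from 250 before the annotated start to 50 after it. Below are the windows of the 5 members that were at least 1.5-fold higher and had one, shown because these genes moved together. They are written 5′ to 3′ on the gene's strand (GRCm38.p6), and capitals mark 3 motifs searched on both strands: the forkhead motif TGTTTAC, the CCAAT box and the GC box GGGCGG. The coordinates are chr12:57546062-57546361 on the minus strand for Foxa1, chr13:31806396-31806695 on the plus strand for Foxc1, chr13:98353995-98354294 on the plus strand for Foxd1, chr4:99656049-99656348 on the plus strand for Foxd3 and chr3:52268087-52268386 on the plus strand for Foxo1.
Foxa1: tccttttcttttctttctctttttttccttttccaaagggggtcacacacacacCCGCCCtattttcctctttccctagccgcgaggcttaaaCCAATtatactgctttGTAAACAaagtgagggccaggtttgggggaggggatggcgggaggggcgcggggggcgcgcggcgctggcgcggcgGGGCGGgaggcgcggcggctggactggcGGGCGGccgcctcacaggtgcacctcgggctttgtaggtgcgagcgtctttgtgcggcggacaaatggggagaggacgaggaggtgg
Foxc1: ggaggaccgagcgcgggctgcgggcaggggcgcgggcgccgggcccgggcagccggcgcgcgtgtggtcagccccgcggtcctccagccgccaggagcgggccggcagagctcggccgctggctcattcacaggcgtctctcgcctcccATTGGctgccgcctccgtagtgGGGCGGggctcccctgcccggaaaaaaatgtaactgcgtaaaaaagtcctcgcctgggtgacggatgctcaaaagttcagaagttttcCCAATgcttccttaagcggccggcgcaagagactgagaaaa
Foxd1: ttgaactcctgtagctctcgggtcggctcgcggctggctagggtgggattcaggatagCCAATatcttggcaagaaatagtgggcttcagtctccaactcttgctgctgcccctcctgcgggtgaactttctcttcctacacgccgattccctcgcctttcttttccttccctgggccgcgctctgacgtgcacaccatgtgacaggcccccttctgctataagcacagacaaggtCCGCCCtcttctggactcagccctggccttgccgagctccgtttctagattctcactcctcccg
Foxd3: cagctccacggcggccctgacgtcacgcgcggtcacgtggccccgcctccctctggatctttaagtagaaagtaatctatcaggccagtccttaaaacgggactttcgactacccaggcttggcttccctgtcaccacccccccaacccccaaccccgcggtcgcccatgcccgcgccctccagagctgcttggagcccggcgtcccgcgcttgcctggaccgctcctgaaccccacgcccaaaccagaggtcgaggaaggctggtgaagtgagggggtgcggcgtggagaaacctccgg
Foxo1: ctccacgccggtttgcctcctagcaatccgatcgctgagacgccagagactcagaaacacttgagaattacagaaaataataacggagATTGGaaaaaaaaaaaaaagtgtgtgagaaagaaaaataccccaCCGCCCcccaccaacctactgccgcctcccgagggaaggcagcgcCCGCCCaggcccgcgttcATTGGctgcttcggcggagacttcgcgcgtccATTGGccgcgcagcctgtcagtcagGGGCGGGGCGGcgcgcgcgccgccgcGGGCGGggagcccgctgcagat

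The forkhead motif occurred in 1 of the 34 member windows, that of Foxa1, where it starts at base 110 and reads as its reverse complement, and in 3.65% of all 32851 windows in the table. A CCAAT box lay in 15 member windows (44.1%, against 37.4% of all windows) and a GC box in 25 (73.5%, against 35.7%). The window of Foxo1 held 3 CCAAT and 5 GC box matches, some of them overlapping, and that of Foxd3 held no match to these letters. Member windows had a median of 22 CpG dinucleotides, against 7 over all windows. The printed windows held 26 in Foxa1, 32 in Foxc1, 15 in Foxd1, 25 in Foxd3 and 31 in Foxo1. The windows of the other called members that had one held 27 in Foxf2 and 3 in Foxr2. Windows of members that did not pass ranged from 5 in Foxi2 to 59 in Foxk2. A match describes letters in the window and is no evidence of binding.

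Several Foxo genes code for proteins that insulin and AKT signalling keep out of the nucleus. In this subclass 1 of 4 genes passed (29.2% of all genes). Foxo1 read 7.02, 7.01 and 7.08 with PBS and 8.04, 7.66 and 7.70 with VPA. All VPA arrays were far above the narrow PBS range, and the change was 0.76 (SE 0.10, adjusted p = 0.000526), or 0.64 (SE 0.05) without VPA 1. Foxo1 is also active in endothelial cells, whose markers, given above, rose in 13 of 16 cases and fell in 0 by limma (14 and 0 at an unadjusted p under 0.05), and the part of these cells in its rise was not tested. Foxo3, a regulator of stem cell quiescence, read 9.06, 9.08 and 9.08 with PBS and 9.03, 8.88 and 8.78 with VPA. The VPA arrays were lower without overlap, but VPA 1 lay close to the PBS arrays, and the change of -0.18 did not pass (SE 0.07, adjusted p = 0.0966). It passed when VPA 1 was left out, at -0.25 (SE 0.05, adjusted p = 0.00676). Foxo6, the member found mainly in the brain, differed by -0.08 (95% confidence interval -0.29 to 0.12), and by -0.18 (adjusted p = 0.0385) without VPA 1. Foxo4 differed by 0.12 (95% confidence interval -0.03 to 0.26), with overlapping groups. Whether Foxo1 differed from its paralogues in its change was not tested.

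Genes upstream and downstream of the Foxo factors were counted beside them. Of 14 regulators in insulin and PI3K-AKT signalling 1 rose and 1 fell (13.6% and 15.7% of all genes): Irs1, an adaptor of the insulin receptor, rose by 0.47 (SE 0.15), and Insr, the receptor gene, changed by -0.20 (SE 0.05). Without VPA 1 the lower count was 5, and when any PBS array was left out neither Irs1 nor Insr was called. Of 20 Foxo target genes 2 rose and 3 fell (13.6% and 15.7% of all genes), with a median of -0.10. Pik3ip1, an inhibitor of PI3 kinase, changed by -0.43 (SE 0.06) and Gadd45a, a stress response gene, rose by 0.23 (SE 0.07). Leaving out any array other than VPA 1 or VPA 3 left 1 called gene, which was lower, and without VPA 1 the counts were 2 and 5.

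**Figure D4:**
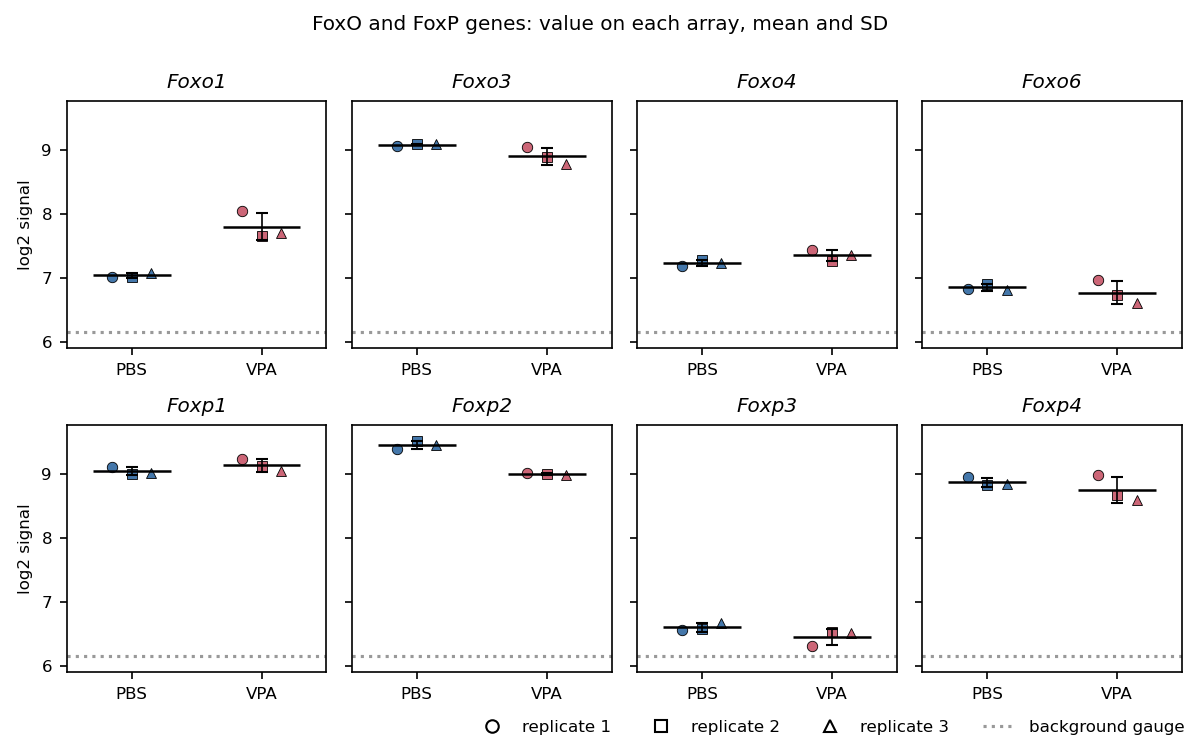
Log2 signal (vertical axis, the same in all panels) of the 4 Foxo and 4 Foxp genes on each array, with PBS in blue and VPA in red. Symbols mark the replicate number, bars the mean and SD of 3 arrays, and the dotted line the background gauge. Foxo1 is higher and Foxp2 lower on all VPA arrays, and in Foxo3, Foxo6 and Foxp4 the circle of VPA 1 lies above the other VPA arrays.

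Foxp2, a gene of striatal, cortical and cerebellar neurons known for its role in speech, had the largest fall among members above background. It read 9.39, 9.51 and 9.44 with PBS and 9.01, 8.99 and 8.98 with VPA. The VPA arrays were nearly equal and well below the PBS arrays, and the change was -0.45 (SE 0.06, adjusted p = 0.000427). It differed little without VPA 1, at -0.46. Foxp1, which shares dimers with Foxp2 and is active in striatal and motor neurons, read 9.109, 8.996 and 9.016 with PBS and 9.232, 9.124 and 9.035 with VPA, a change of 0.09 (95% confidence interval -0.06 to 0.24) with overlapping groups. Foxp4 differed by -0.12 (95% confidence interval -0.35 to 0.10), and by -0.24 (adjusted p = 0.0125) without VPA 1. Foxp3, the factor of regulatory T cells, differed by -0.15 (adjusted p = 0.170). Of 18 pan-neuronal genes 12 fell and 2 rose, with a median of -0.25, and their mean level was 10.73 to 10.80 on the PBS arrays and 10.61 to 10.65 on the VPA arrays. Nefm, a neurofilament gene, rose by 1.24 (SE 0.06), and Mapt, the gene of the microtubule protein tau, changed by -0.53 (SE 0.08). Without PBS 2 the lower count was 7, and without PBS 1 it was 8. The part of a shift in neuronal RNA in the fall of Foxp2 was not tested.

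The other called members that were lower were Foxb1 and Foxr2. Foxb1, a gene of the mammillary region of the hypothalamus and of the hindbrain, read 7.71, 7.59 and 7.58 with PBS and 7.48, 7.27 and 7.24 with VPA. The groups were separate by a small margin, and the change was -0.30 (SE 0.08, adjusted p = 0.0186). The call was lost when PBS 1 (adjusted p = 0.0835), VPA 2 (0.0629) or VPA 3 (0.0607) was left out. Its subclass neighbour Foxb2 differed by -0.09 (95% confidence interval -0.26 to 0.07). Foxr2 read 6.20, 6.00 and 6.12 with PBS and 5.69, 5.90 and 5.61 with VPA. Its difference was -0.37 (SE 0.09, adjusted p = 0.0116), with group means of 6.11 and 5.73, neither of which reached the gauge. Without PBS 1 this call was lost as well (adjusted p = 0.0569).

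Foxm1, which drives the transcription of genes needed for mitosis, read 7.79, 7.70 and 7.67 with PBS and 8.14, 8.02 and 7.97 with VPA. The groups did not overlap and the rise was 0.32 (SE 0.07, adjusted p = 0.00610), and 0.28 without VPA 1. Of 19 mitotic genes known as its targets, 12 rose and 0 fell by limma (16 and 0 at an unadjusted p under 0.05), with a median change of 0.29. Without PBS 2 or without PBS 3 the count was 8, and without VPA 1 it was 15. Aurkb, a kinase gene of the chromosomal passenger complex, rose by 0.57 (SE 0.10) and Cks2, a partner of cyclin-dependent kinases, by 0.55 (SE 0.09). The mean level of the list was 8.15 to 8.31 with PBS and 8.51 to 8.61 with VPA. Foxm1 is itself transcribed in dividing cells, and the part of a change in the number of dividing cells was not tested.

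Foxj1, the master regulator of motile cilia, read 6.32, 6.33 and 6.31 with PBS and 6.21, 6.19 and 6.19 with VPA. The 3 VPA arrays were lower and replicates were close, yet the change of -0.12 (SE 0.05, adjusted p = 0.106) did not pass. It passed without moderation of the variances (adjusted p = 0.00728), where the gene's own SDs of 0.0080 and 0.0139 set the error, and with array weights (adjusted p = 0.0382). Of 24 motile cilium genes 0 rose and 5 fell by limma (0 and 6 at an unadjusted p under 0.05). The shares of all genes called higher and lower were 13.6% and 15.7%. Below the gauge in both groups were 13 of the list, among them Ak7 and Zmynd10, which were called lower. Ccdc39, a gene of the ciliary axoneme, changed by -0.69 (SE 0.10) and Rfx3, a transcription factor gene of cilia, by -0.43 (SE 0.06). Without PBS 1 or without VPA 2 the lower count was 2, and without PBS 2 or without PBS 3 it was 3. Foxj2 and Foxj3, which are broadly expressed, differed by 0.08 and 0.10 and did not pass.

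Foxn4, which directs progenitors to V2b interneurons and to retinal amacrine cells, read 6.82, 6.76 and 6.61 with PBS and 6.68, 6.81 and 6.78 with VPA. The groups overlapped and the change was 0.03 (95% confidence interval -0.13 to 0.19). Of 10 genes of V2 interneurons and amacrine cells 2 rose and 4 fell. Sox14 and Gata3, factors of interneurons, changed by -1.28 (SE 0.08) and -1.02 (SE 0.13). Foxh1, the partner of Smad proteins in Nodal signalling, read 5.52, 5.60 and 5.61 with PBS and 5.60, 5.52 and 5.61 with VPA, below the gauge in both groups. Of 14 Nodal and mesendoderm genes 2 rose and 3 fell (1 rose without PBS 1 or PBS 3), and Nodal, Lefty1, Lefty2 and Tdgf1 were below the gauge throughout. Eomes, a mesendoderm and cortical progenitor factor, changed by -1.95 (SE 0.09).

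In all, 31 members did not pass, with changes from -0.18 to 0.19, of which 18 were above and 13 below 0. The 95% confidence intervals of all 31 stayed within a 1.5-fold change, with bounds from -0.35 to 0.37, so smaller changes may be present. These intervals do not bound the changes of Foxa3, Foxd4, Foxh1, Foxi1, Foxl1, Foxn1 and Foxr1. Both means of those genes lay below the gauge, so their changes have no defined size. An unadjusted p under 0.05 was reached by 4 of them, Foxa2, Foxd2, Foxj1 and Foxo3. Foxk1 and Foxk2, broadly expressed factors of metabolism, differed by 0.08 and 0.10, and VPA 1 was above the other VPA arrays by 0.38 and 0.19. Foxn2 and Foxn3, of which the latter acts in cell cycle checkpoints, differed by 0.13 and 0.02, and the second probe set of Foxn3 by 0.09. The genes named for single organs showed small differences as well: 0.05 for Foxe1 of the thyroid, -0.03 for Foxe3 of the lens, -0.05 and 0.0048 for Foxi2 and Foxi3 of the ear and surface ectoderm, and 0.12 for Foxl2 of the ovary. Foxl2os, antisense to Foxl2, differed by -0.02. Below the gauge in both groups, the differences were 0.06 for Foxa3, 0.13 for Foxd4, -0.06 for Foxi1, -0.12 for Foxn1 of the thymus and 0.18 for Foxr1.

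Telencephalic and progenitor genes were measured as markers of the anterior neural cells in which several forkhead factors act. Of 18 telencephalic genes 5 rose and 8 fell, with a median of -0.02, and the mean level of the list was 7.60 to 7.69 with PBS and 7.47 to 7.50 with VPA. Eomes was the telencephalic member with the furthest change, and Dlx1, a factor of GABAergic neurons, rose by 1.41 (SE 0.08). Of 14 radial glia and progenitor genes 4 rose and 2 fell, with a median of 0.11, and without any array other than VPA 1 the lower count was 1. Pax6 rose by 0.54 (SE 0.07), and Ptprz1, a receptor phosphatase gene, changed by -0.47 (SE 0.06).

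**Figure D5:**
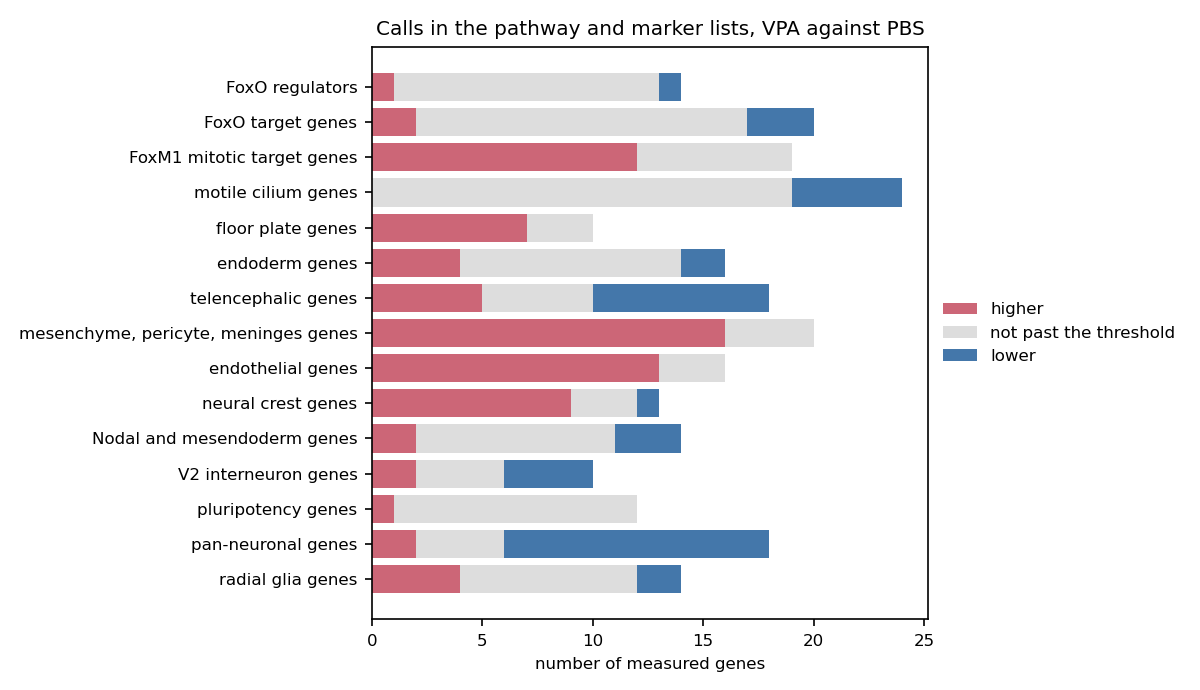
Number of measured genes (horizontal axis) in each of the 15 pathway and marker lists that were higher with VPA (red), lower (blue) or not past the threshold (grey), by limma at an adjusted p under 0.05. Of all genes 13.6% were higher and 15.7% lower; red takes 16 of 20 mesenchyme, pericyte and meninges genes, 13 of 16 endothelial genes and 12 of 19 mitotic genes, and blue 12 of 18 pan-neuronal genes.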

How the data were processed

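Total RNA of 6 cultures was labelled by the Affymetrix whole transcript sense assay, per the labels' protocols. The deposited values are log2 signals per probe set, which the authors had already normalized between arrays; base 2 was inferred from their range, 2.50 to 13.89. How they were summarized and normalized is not given in the sources used here. The submitters' processing notes name Partek 6.5 and mm9 without saying for what. Of 35556 probe sets, GEO's platform annotation gave 1 symbol to 21789, several to 1621 and none to 12146. Symbols were updated through Entrez IDs in a RefSeq table of GRCm38.p6, which held all 44 members and also gave the order of genes.

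VPA and PBS were compared with limma 3.58.1 (lmFit and eBayes, no covariates) in R 4.3.3 over 19938 genes; the procedure was tested on simulated data. Changes are VPA minus PBS with moderated standard errors, and adjusted p-values follow Benjamini and Hochberg over all genes. With 3 arrays a group, exact permutation cannot give a two-sided p below 0.1 and was not used. The number of arrays limits the precision. Members past the threshold that reached the gauge in a group and changed by at least 0.25 got full statistics, with up to 12 further examples; at most the 2 called genes of largest change were named per list. Foxq1, Foxr2, flanking genes, genes below the gauge, Klf4, Krt8, Krt18 and Gata6 were named after their values were seen. The 15 lists (238 of 253 entries measured) and the members were chosen with earlier results of these data known.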

Additional observations from a re-analysis of the deposited data

How the results depend on the processing

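All 10 higher and 3 lower members kept their direction under each of the 18 alternatives in which they were tested. Of these 13 calls 8 also held in all of those settings, and Foxa1, Foxb1, Foxf1, Foxq1 and Foxr2 lost theirs in some: without moderation of the variances their adjusted p was 0.0951, 0.0926, 0.0991, 0.0667 and 0.0887. Foxf1 and Foxq1 also lost it without PBS 1, PBS 2 or VPA 2 (0.0712 to 0.101), and Foxq1 without PBS 3 (0.0866). Of the 31 other members 7 were called under some setting.

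Restricting the genes to the upper 50% by mean level tested 15 members among 9969 genes. There 1 member (6.67%) was higher against 1520 genes (15.25%), and 2 (13.33%) lower against 2650 (26.58%). The higher share of members was thus below that of all genes, and the lower share stayed below it. Of the genes with a group mean at or above the gauge, 10 of 36 members (27.78%) were higher against 2375 genes (16.71%). Lower were 2 members (5.56%) against 3239 genes (22.79%). Array weights gave 12 higher members (27.27%) against 4342 genes (21.78%) and 6 lower (13.64%) against 4575 (22.95%). At an adjusted p under 0.01, 8 members (18.18%) were higher against 1579 genes (7.92%) and 1 (2.27%) lower against 1791 (8.98%). Without moderation 7 members (15.91%) were higher against 1631 genes (8.18%). Quantile normalization turned the balance over all genes, to 3147 higher and 2671 lower, with 10 and 3 members as before. When single arrays were left out, lower members numbered 1 to 6, higher genes 1778 to 3949, lower genes 2058 to 4224, and the median change of the members was 0.039 to 0.095. The lowest gene counts were those without PBS 2 and the lowest median that without VPA 1; the cause was not tested. With the replicate block 10 members were higher (13% of all genes) and 3 lower (14.13% of all genes), and no member's call changed. Same-numbered arrays showed no large shared deviation (correlations -0.020, -0.0085 and 0.020). The labels do not state whether equal numbers mark cultures handled together, and these correlations cannot exclude it.

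Members near 0 changed sign and stayed uncalled. Quantile normalization gave 0.0067 for Foxl2os, and array weights -0.041 for Foxe1, -0.0037 for Foxi3, -0.018 for Foxk1, 0.056 for Foxl2os and -0.0031 for Foxs1. With single arrays left out the changes ran from -0.011 to 0.127 for Foxa3, -0.045 to 0.114 for Foxe1, -0.079 to 0.015 for Foxe3, -0.028 to 0.027 for Foxh1, -0.149 to 0.015 for Foxi1, -0.025 to 0.036 for Foxi3, -0.038 to 0.154 for Foxj2, -0.042 to 0.147 for Foxk1, -0.107 to 0.0026 for Foxl1, -0.071 to 0.064 for Foxl2os, -0.024 to 0.056 for Foxn3, -0.033 to 0.072 for Foxn4 and -0.052 to 0.063 for Foxs1. Members below the gauge have no defined size of change.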
